A study of Arabidopsis thaliana with 6 samples.

Results

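The genes described here are 5 jasmonate output and methyltransferase genes of Arabidopsis, PDF1.2 (AT5G44420), THI2.1 (AT1G72260), JMT (AT1G19640), BSMT1 (AT3G11480) and ORA47 (AT1G74930). They were chosen by gene identity, with earlier results of these data known. Each is represented by a single probe set that names it alone. Thus 5 of the 16129 probe sets in the deposited values, and 5 of 8854 genes named by a probe set, are concerned. Shares of all probe sets below are of these 16129. PDF1.2 encodes a defensin and THI2.1 a thionin, small antimicrobial proteins that are classic readouts of jasmonate. JMT forms methyl jasmonate and BSMT1 forms methyl salicylate and methyl benzoate. ORA47 is an AP2/ERF transcription factor that activates jasmonate synthesis genes.

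Jasmonates are lipid-derived hormones that leaves make after wounding and attack. Binding of jasmonoyl-isoleucine to its receptor COI1 leads to the breakdown of JAZ repressor proteins, which frees transcription factors of the MYC family and induces the AP2/ERF factors that drive hormone synthesis and defence output. Methylation of the acid group turns jasmonate and salicylate into volatile esters, and both kinds of ester have been studied as signals between leaves. Glycerol-3-phosphate (G3P), the agent applied here, is a phosphate ester of glycerol known in Arabidopsis as an inducer of systemic resistance.

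All plants were Arabidopsis thaliana of the Columbia ecotype (Col-0), 3 to 4 weeks old. In the G3P group a primary leaf was infiltrated with exudate and MgCl2 to which G3P had been added, and in the mock group with exudate and MgCl2 alone, so both groups received exudate. Uninfiltrated distal leaves were harvested after 24 h, with 3 biological replicates per group, each from its own set of plants and on its own Affymetrix ATH1 array. The dose of G3P is not given in the sources used here. RNA came from whole leaves, in which fewer cells of a type and less RNA per cell cannot be told apart.

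Median signals of the arrays lay between 291 and 338. The array of G3P replicate 3 stood apart: over the probe sets, which are no independent replicates, its log2 signals had correlations of 0.842 to 0.913 with the remaining arrays, whereas the other 5 correlated at 0.930 to 0.961 with each other. It lay over 1 log2 unit above the other 5 arrays for 3.78% of all probe sets and over 1 unit below them for 3.81%, whereas no other array did so for more than 0.744% above or 0.738% below. The differences below are therefore also given without it. As a check of the tissue, 4 of 7 leaf mesophyll markers had a named probe set (RCA, LHCB4.1, LHCB4.2 and PSAN, genes of photosynthesis), and their summed signal was 34741 to 79929 in G3P leaves and 81985 to 100703 in mock leaves. The lowest sum, 34741, was that of G3P replicate 3, against 78583 or more on the other 5 arrays. LHCB4.1, LHCB4.2 and PSAN were each lowest on that array, whereas RCA was lowest on G3P replicate 1 (8959, against 10471 on G3P replicate 3). Of 7 guard cell and epidermis markers 2 had a named probe set, FMA, a transcription factor of guard cell formation, and AT1G22690. Their summed signal was 449.7 to 1292 in G3P leaves and 558 to 1002 in mock leaves, and it was lowest on G3P replicate 3 and highest on G3P replicate 1. AT1G22690 had this order (210 and 966). FMA did not: it was lowest on mock replicate 3 (187) and highest on mock replicate 1 (350). The part of either list in the results below was not tested. Of the 8 flower and silique markers and the 6 vasculature markers 0 had a named probe set. The root marker PYK10, a root glucosidase and the only marker of 6 with a named probe set, had signals of 17.4 to 92.2 in G3P leaves and 8.56 to 77.4 in mock leaves.

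Over the 5 genes, the difference of group means was positive for all 5 (46.5% of all probe sets had a positive difference) but passed the test for none. Differences are of log2(signal + 16), G3P minus mock, from limma fitted to all probe sets, with p-values adjusted by the Benjamini-Hochberg method over all of them. At an adjusted p under 0.05 limma called 0 of the 5 genes and 0 of 16129 probe sets (0%), and at an unadjusted p under 0.05 it called 0 of the 5 and 496 probe sets (3.08%). The rank-sum test, which the study's design text prescribes, also called 0; its exact p cannot go below 0.1 at this size. The groups overlapped for all 5 genes, while they did not overlap for 8.64% of all probe sets. The median difference was 1.18 for the 5 genes and -0.03 over all probe sets. The genes were chosen with earlier results of these data known. The counts and shares set beside them, here and below, are therefore descriptions and no test.

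**Figure D1:**
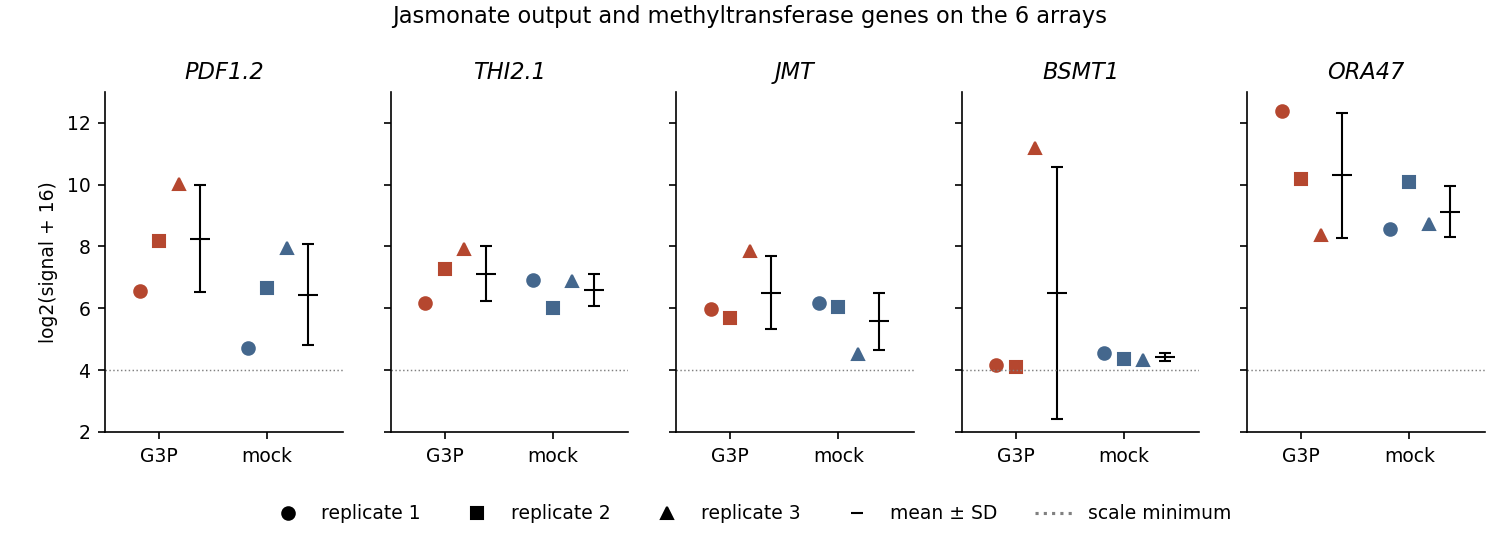
Signals of the 5 genes on each array, as log2(signal + 16), with G3P left of mock; symbols mark the replicate number, the black bar the mean and its whisker the SD (n = 3), and the dotted line the lowest value the scale allows, 4. G3P replicate 3 is the highest array for PDF1.2, THI2.1, JMT and BSMT1 and the lowest for ORA47, whose highest array is G3P replicate 1 at 12.38.

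ORA47, the transcription factor of the set, varied widely among the G3P leaves themselves. Its signals were 5320, 1136 and 311 in G3P replicates 1, 2 and 3, against 365, 1065 and 404 in mock replicates 1, 2 and 3. G3P replicate 1 was thus the highest array and G3P replicate 3 the lowest of all 6, with every mock value in between. On the log2 scale the mean was 10.30 ± 2.02 in G3P leaves and 9.12 ± 0.83 in mock leaves (SD, n = 3 each). The difference was 1.18 ± 0.92 (SE), with a 95% interval of -0.94 to 3.30 (limma, adjusted p = 0.912; exact two-sided permutation p = 0.6).

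The ORA47 signal on G3P replicate 1 exceeded that of the next array by 2.21 log2 units, and at this pseudocount no other of the 16129 probe sets exceeded the other 5 arrays by as much on that array (1 other did at a pseudocount of 1). A lead of over 1 log2 unit on G3P replicate 1 was found for 0.105% of probe sets. Without G3P replicate 1 the difference of ORA47 was 0.14. Without G3P replicate 3 it was 2.15 ± 0.66 (SE), and the 2 remaining G3P values, 12.38 and 10.17 on the log2 scale, lay above the mock values of 8.57 to 10.08. In that comparison 8.86% of all probe sets were higher in G3P without overlap, and 2.71% had an unadjusted p under 0.05. ORA47 had an unadjusted p of 0.0109 there and did not pass after adjustment (limma, adjusted p = 0.999).

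BSMT1, which makes methyl salicylate, was bright on a single array. Its signals were 2.03, 1.09 and 2317 in G3P replicates 1, 2 and 3, against 7.63, 4.70 and 4.13 in mock replicates 1, 2 and 3. On 5 arrays it thus stood near the lowest value of the scale, where signals may be background, since detection calls were not used here. On the log2 scale G3P replicate 3 was at 11.19 and the others at 4.56 or less. The size of that gap is set by the pseudocount: it was 6.63 with 16, 8.07 with 1 and 5.05 with 64. On G3P replicate 3 the number of probe sets with a gap at least as large, BSMT1 included, was 1, 1 and 6 at these settings.

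The mean log2 signal of BSMT1 was 6.49 ± 4.07 in G3P leaves and 4.42 ± 0.12 in mock leaves (SD, n = 3 each). The difference of 2.06 ± 1.71 (SE) had a 95% interval of -1.89 to 6.02 (limma, adjusted p = 0.912), and the exact two-sided permutation p was 1. Without G3P replicate 3 the sign turned, to -0.29 ± 0.59 (SE). Both remaining G3P values then lay below all mock values, at signals close to the scale minimum; in that comparison the groups did not overlap for 17% of all probe sets, counting both directions. The difference was 3.22 without G3P replicate 1 and 3.26 without G3P replicate 2, since each of these arrays was low. With array quality weights in the fit it was 0.79.

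JMT, the methyltransferase that acts on jasmonate, was also highest on G3P replicate 3. Its signals were 46.9, 35.0 and 217 in G3P replicates 1, 2 and 3, against 55.8, 50.1 and 6.94 in mock replicates 1, 2 and 3. Signals lay between 35.0 and 55.8 on the rest of the arrays, with G3P replicate 3 above them and mock replicate 3 below them, at a signal as low as those of BSMT1 that may be background. The mean log2 signal was 6.50 ± 1.19 in G3P leaves and 5.58 ± 0.92 in mock leaves (SD, n = 3 each). Their difference of 0.93 ± 0.68 (SE) had a 95% interval of -0.65 to 2.51 (limma, adjusted p = 0.912; exact two-sided permutation p = 0.6). Leaving out G3P replicate 3 gave 0.25, and leaving out mock replicate 3 gave 0.40. With array quality weights it was 0.36, and with a pseudocount of 64 it was 0.56.

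The study's design names the ratio of medians as the measure of change. For JMT the median signal was 46.9 in G3P leaves and 50.1 in mock leaves, a ratio of 0.936, close to no difference. For BSMT1 the medians were 2.03 in G3P leaves and 4.70 in mock leaves, both so near the scale minimum that no direction is read from them. The ratios were 3.25 for PDF1.2, 1.34 for THI2.1 and 2.81 for ORA47.

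PDF1.2, the defensin gene, varied strongly within both groups. Its signals were 78.2, 274 and 1029 in G3P replicates 1, 2 and 3, against 10.3, 84.0 and 234 in mock replicates 1, 2 and 3. In both groups the signal thus rose from replicate 1 to replicate 3, though no source says that equal numbers mark shared plants. G3P replicates 3 and 2 were the highest arrays, and G3P replicate 1 was below mock replicates 2 and 3. Mock replicate 1 was the lowest, at a signal of 10.3 that may be background. The mean log2 signal was 8.25 ± 1.74 in G3P leaves and 6.44 ± 1.63 in mock leaves (SD, n = 3 each). The difference of 1.81 ± 1.01 (SE) had a 95% interval of -0.51 to 4.14 (limma, adjusted p = 0.912; exact two-sided permutation p = 0.3). Leaving out G3P replicate 3 gave 0.93, and leaving out mock replicate 1 gave 0.95.

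A second defensin probe set, that of the near-identical gene PDF1.2b (AT2G26020), carries the suffix that the manufacturer gives to probe sets sharing probes with other sequences. It had signals of 64.5, 251 and 1124 in G3P replicates 1, 2 and 3, against 65.1, 62.3 and 220 in mock replicates 1, 2 and 3. The order of the 3 highest arrays was that of PDF1.2, and the 2 probe sets parted on mock replicate 1, where PDF1.2 was 1.84 log2 units under its next array and PDF1.2b was level with G3P replicate 1. The difference was 1.34 ± 0.90 (SE; limma, adjusted p = 0.912), and 0.36 without G3P replicate 3. Signals of PDF1.2 and PDF1.2b may share transcripts and are not independent. PDF1.2c, the gene next to PDF1.2 on the chromosome, was not analysed here.

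THI2.1, the thionin gene, had the narrowest range of the 5 genes, 1.93 log2 units over the arrays. Its signals were 56.4, 137 and 228 in G3P replicates 1, 2 and 3, against 103, 47.9 and 103 in mock replicates 1, 2 and 3. As for PDF1.2, G3P replicates 3 and 2 were highest and G3P replicate 1 lay within the mock range. The mean log2 signal was 7.12 ± 0.88 in G3P leaves and 6.60 ± 0.52 in mock leaves (SD, n = 3 each). Their difference of 0.53 ± 0.49 (SE) had a 95% interval of -0.60 to 1.65 (limma, adjusted p = 0.912; exact two-sided permutation p = 0.4). Leaving out G3P replicate 3 gave 0.12, leaving out G3P replicate 1 gave 0.999, and leaving out mock replicate 2 gave 0.23. On G3P replicate 3 THI2.1 exceeded the next array by 0.67 log2 units, which 6.24% of all probe sets matched or exceeded there.

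**Figure D2:**
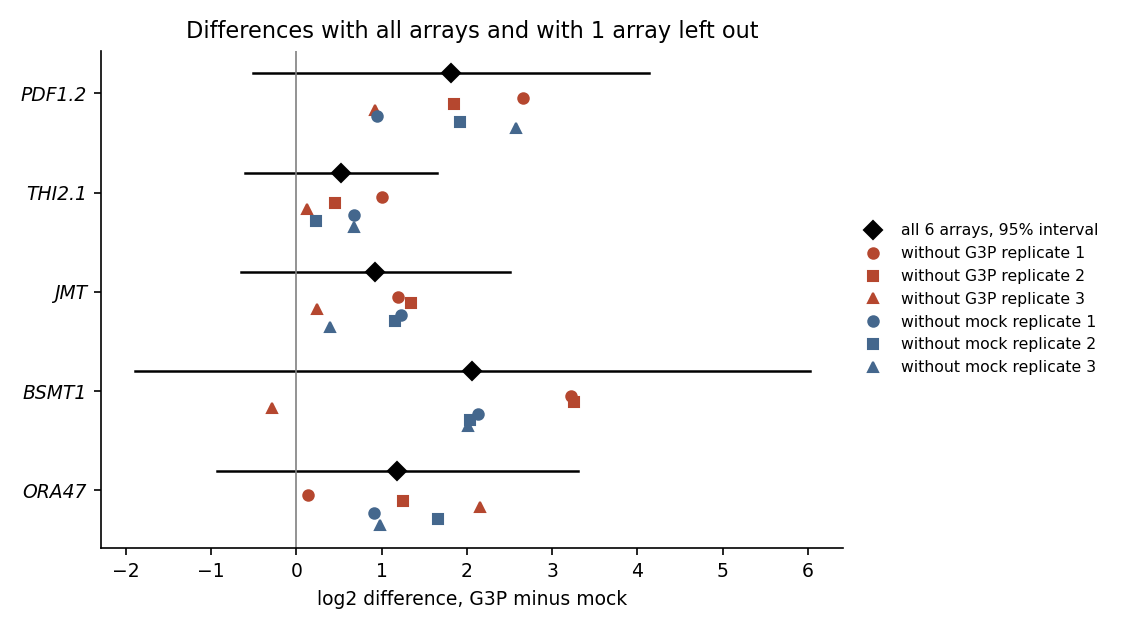
Difference of each gene in log2 units, G3P minus mock, with all 6 arrays (diamond, with its 95% interval from limma) and with each array left out in turn (red for a G3P array, blue for a mock array, symbols by replicate number). All 5 intervals include 0; leaving out G3P replicate 3 gives the lowest value for PDF1.2, THI2.1, JMT and BSMT1 and the highest, 2.15, for ORA47.

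The 5 genes were not high on the same arrays. G3P replicate 3 was the highest array for 4 of them (PDF1.2, THI2.1, JMT and BSMT1), where 24.5% of all probe sets had their highest value (27.3% had it on mock replicate 1), and 3 of these lay over 1 log2 unit above the other arrays (3.78% of all probe sets). ORA47 was the exception and was lowest there, though by 0.22 log2 units. On G3P replicate 1 ORA47 stood 2.99 log2 units above its own median over the 6 arrays. PDF1.2 and THI2.1 stood 0.75 and 0.72 units below theirs. JMT was close to its median (0.04 below), as was BSMT1 (0.18 below), the latter near the scale minimum. On G3P replicate 2 ORA47, PDF1.2 and THI2.1 were above their medians by 0.36 to 0.87 units, and JMT and BSMT1 were slightly below.

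**Figure D3:**
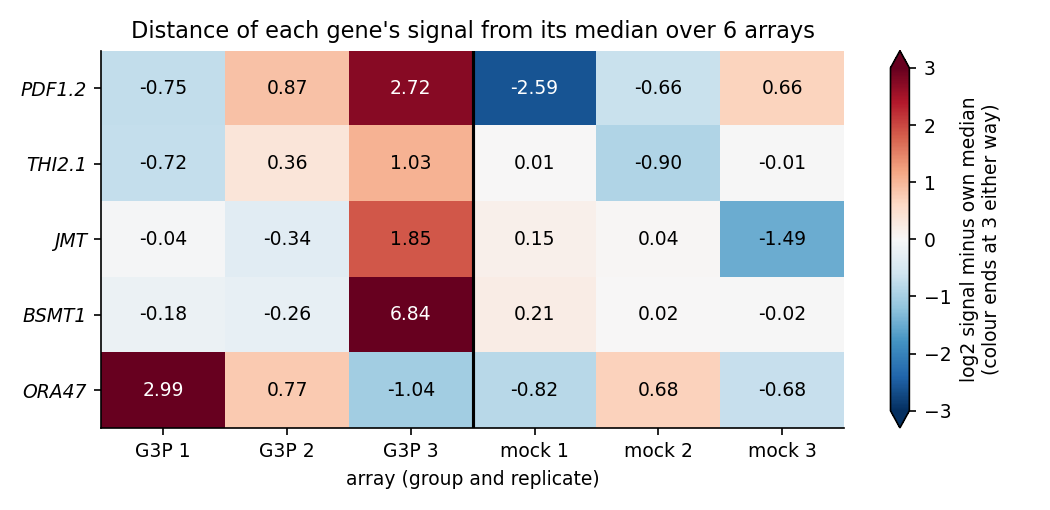
Log2 signal of each gene on each array minus that gene's median over the 6 arrays, with G3P arrays left of the black line and mock arrays right of it; red is above the median and blue below, and the colour scale ends at 3. The column of G3P replicate 3 is red for 4 genes and blue for ORA47, and that of G3P replicate 1 is red for ORA47 alone.

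Without G3P replicate 3 the correlations among the 4 genes highest on it were of mixed sign. Over all 6 arrays the 6 pairs among PDF1.2, THI2.1, JMT and BSMT1 had Pearson correlations of 0.35 to 0.83, and the 4 pairs with ORA47 had -0.64 to -0.18, with shared plants and a shared scaling behind each array. Among the 4 genes ranks gave less: Spearman's rho was -0.03 for PDF1.2 with JMT and 0.03 for PDF1.2 with BSMT1. It was 0.60 for PDF1.2 with THI2.1 and 0.83 for JMT with BSMT1. For the pairs with ORA47 rho was -0.89 to -0.26. BSMT1 was near the scale minimum on all arrays but G3P replicate 3, so its ranks there order signals that may be background. The rho of JMT with BSMT1 was 0.60 with quantile normalization and 0.43 with median centring. That of PDF1.2 with THI2.1 was 0.77 and 0.83 at these settings. Without G3P replicate 3, on 5 arrays, 4 of the 6 pairs had a negative Pearson correlation and the range was -0.76 to 0.28. PDF1.2 with THI2.1 remained positive at 0.28, and JMT with BSMT1 at 0.17. With any other array left out, PDF1.2 with THI2.1 was at 0.64 to 0.98, the highest without mock replicate 1. The pairs with BSMT1, among them that with PDF1.2 at -0.76, then rest on its signals near the scale minimum. Pairs with JMT or PDF1.2 also include a signal that may be background, on mock replicate 3 for JMT and on mock replicate 1 for PDF1.2. With 6 arrays these values are a description, and no p is attached to them.

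The rest of the jasmonate pathway was thinly represented among the named probe sets. Of 80 further genes in 6 lists (synthesis, perception and JAZ repressors, turnover, defence output, wound output, and methyltransferases with methyl esterases), 9 had a named probe set. None of the 9 passed the test, 7 had a positive and 2 a negative difference, and their median was 0.70. The lists of wound output and of methyltransferases and methyl esterases had 0 members with a named probe set. Of the 16129 probe sets 6840 had no gene entry, and whether these cover further list members was not examined.

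Among the named pathway genes, AT5G05600 of the turnover list followed PDF1.2 closely. Its signals were 1596, 3219 and 5118 in G3P replicates 1, 2 and 3, against 655, 1789 and 2425 in mock replicates 1, 2 and 3. Like PDF1.2 it was highest on G3P replicates 3 and 2 and lowest on mock replicate 1. The difference was 1.06 ± 0.56 (SE; limma, adjusted p = 0.912), and 0.67 without G3P replicate 3. The correlation of AT5G05600 with PDF1.2 was 0.985 over 6 arrays and also 0.985 without G3P replicate 3.

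The other turnover genes with a named probe set were high on replicate 3 of both groups. JRG21, a gene named for its regulation by jasmonate, had signals of 152, 218 and 1094 in G3P replicates 1, 2 and 3, against 148, 56.2 and 840 in mock replicates 1, 2 and 3. AT2G38240 had 282, 182 and 1460 in G3P replicates 1, 2 and 3, against 106, 113 and 839 in mock replicates 1, 2 and 3. Their differences were 0.70 ± 0.98 and 0.90 ± 0.93 (SE), and -0.12 and 0.03 without G3P replicate 3.

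The paralogues PDF1.4, a defensin gene, and THI2.2, a thionin gene, showed another order, with G3P replicate 1 highest and G3P replicate 3 lowest as for ORA47. PDF1.4 had signals of 2838, 1602 and 211 in G3P replicates 1, 2 and 3, against 403, 525 and 2509 in mock replicates 1, 2 and 3. THI2.2 had 2752, 1066 and 510 in G3P replicates 1, 2 and 3, against 1132, 1290 and 2179 in mock replicates 1, 2 and 3. Mock replicate 3 was high for both, whereas ORA47 was low there. The differences were 0.29 ± 0.99 for PDF1.4 and -0.35 ± 0.56 for THI2.2 (SE; limma, adjusted p = 0.970 and 0.935), and 1.37 and 0.22 without G3P replicate 3.

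**Figure D4:**
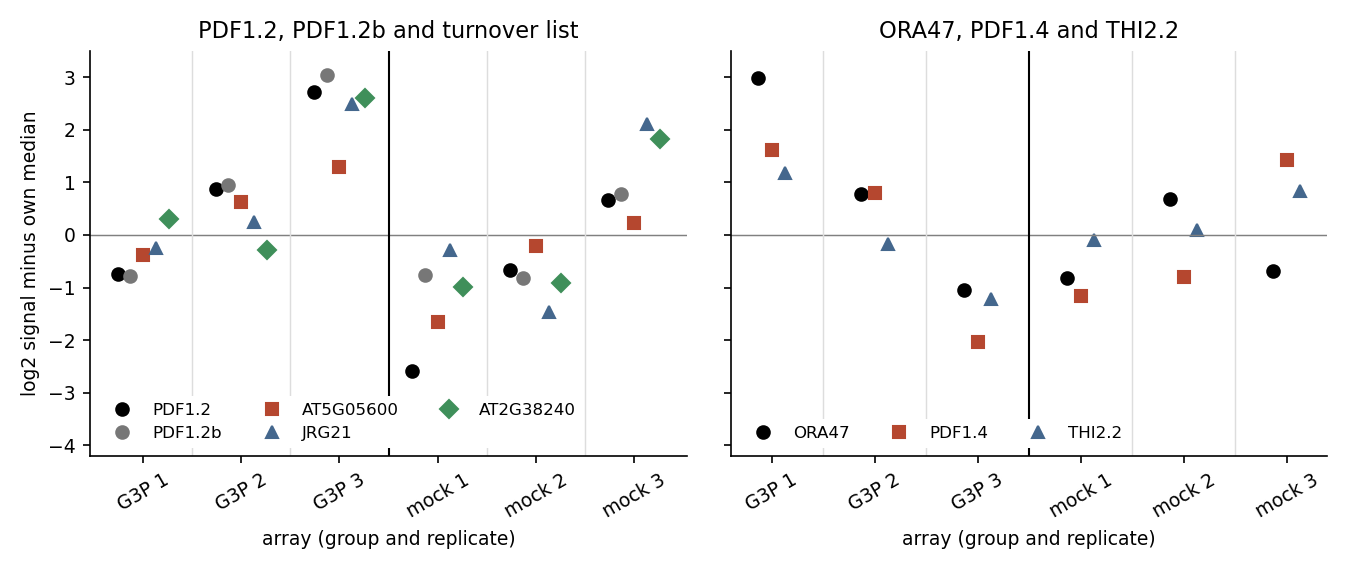
Log2 signal minus each gene's own median over the 6 arrays, with G3P arrays left of the black line. PDF1.2, PDF1.2b and the turnover genes AT5G05600, JRG21 and AT2G38240 (left panel) are all highest on G3P replicate 3, and ORA47, PDF1.4 and THI2.2 (right panel) are all highest on G3P replicate 1 and lowest on G3P replicate 3.

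Of the signalling genes, MYC4, a MYC factor acting beside MYC2, had 8.07 ± 0.23 in G3P leaves and 7.34 ± 0.54 in mock leaves on the log2 scale (SD, n = 3 each). The means differed by 0.74 ± 0.32 (SE; limma, adjusted p = 0.912). Its signals were 244, 304 and 218 in G3P replicates 1, 2 and 3, against 229, 103 and 129 in mock replicates 1, 2 and 3, so the groups overlapped through mock replicate 1. Without G3P replicate 3 its difference was 0.84. MYC3, a related factor, had a difference of 0.24 ± 0.21 (SE), and 0.17 without that array. OPCL1, which activates jasmonate precursors for chain shortening, had -0.46 ± 0.47 (SE), or -0.67 without G3P replicate 3, and was lowest on G3P replicate 1, the array on which ORA47 was highest.

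Among the 4374 other single-gene probe sets that varied by at least 1 log2 unit, those most like each of the 5 genes over the 6 arrays were found by Pearson correlation. They were picked as the highest over these arrays. Their correlations without G3P replicate 3 are therefore partly set by that choice and are no separate check. For PDF1.2 they were AT2G45500 (0.993), AT5G53110 (0.987) and AT5G05600, and these also correlated at 0.979 or more without G3P replicate 3. For ORA47 they were AT1G34580 (0.994), AT2G24340 (0.990) and AT3G25580 (0.984), with 0.986 or more without that array. For THI2.1 they were AT5G43180 (0.984), AT5G08600 (0.982) and AT5G65560 (0.977), and for JMT AT3G15650 (0.992), AT1G70000 (0.985) and AT2G37750 (0.978), with 0.932 or more without that array for all 6. For BSMT1 they were AT1G76640 (0.999), AT3G10320 (0.998) and AT2G35730 (0.995). The likeness to BSMT1 rested on G3P replicate 3: without it the correlations were 0.821, 0.487 and -0.114. A correlation over 0.9 was reached by 196 candidates for BSMT1, 107 for PDF1.2, 45 for THI2.1, 27 for JMT and 24 for ORA47.

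Of the 20 protein-coding genes lying within 2 places of the 5 on the chromosome, 12 had a named probe set, and 1 of the 12 was highest on the same array as its neighbour. Over all probe sets 24.5% were highest on G3P replicate 3 and 16% on G3P replicate 1. The 1 gene was AT1G74940, near ORA47, with 10.58 on G3P replicate 1 against 10.57 on mock replicate 3. AT3G11490, next to BSMT1, had 6.69 on G3P replicate 3, where BSMT1 was high, against 7.29 to 8.16 on the other 5 arrays. ALDH10A8, an aldehyde dehydrogenase gene next to ORA47, was lowest on G3P replicate 1 at 10.55.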

How the data were processed

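Distal leaf RNA was hybridized to ATH1 arrays, which are read in 1 colour. The deposited values are 1 linear intensity per probe set and array, made by the authors with Affymetrix Expression Console 1.0 per the submitters' processing notes. The summarization, the scaling and the selection of probe sets for the table are not stated in the sources used here; detection calls were not used. Trimmed means (2%) of 747 to 754 show a common level, and array medians of log2(signal + 16) lay within 0.206, so no further normalization was applied. The pseudocount of 16 understates changes of dim probe sets.

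Groups came from the sample labels. The comparison of G3P with mock used limma 3.58.1 under R 4.3.3 (lmFit, eBayes with a variance trend, 6 arrays, no covariates, Benjamini-Hochberg over 16129 probe sets, threshold 0.05), because the rank-sum test of the study's design cannot go below an exact p of 0.1. Exact permutation tests used scipy 1.17.1. The fit was tested on simulated data. Replicate numbers were not used as a block, since no source says that they mark shared plants. All pairs of arrays held differing values.

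The platform annotation gave 8950 probe sets a single gene, 339 several and 6840 no entry, and unlisted probe sets are unnamed here. Of the 8950, 8911 matched the RefSeq gene table (TAIR10.1), used for names and gene order only. Named were the 5 genes, the 3 probe sets most like each, and every pathway list member with a single-gene probe set. Each pathway list had 4 or fewer of these. The genes and lists were chosen with earlier results of these data known. Alternatives were pseudocounts of 1 and 64, quantile normalization, median centring, removal of the dimmest 25% or 50%, no or a robust variance trend, array weights, the rank-sum test, the replicate block and omission of each array in turn. Sequences were not used here. The number of arrays limits precision.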

Additional observations from a re-analysis of the deposited data

How the results depend on the processing

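Of the 83 differences of the 5 genes recomputed under the alternatives, 80 kept their direction. The 78 with a test (group medians have none) gave no pass at an adjusted p under 0.05; adjusted p-values ran from 0.658 to 1 (limma or the rank-sum test). The 3 that turned were BSMT1 without G3P replicate 3 (-0.29), and, with group medians in place of means, BSMT1 (-0.20) and JMT (-0.071), values too near 0 or the scale minimum to give a direction. The use of medians, the count at an unadjusted p and the gaps at other pseudocounts were added after the data were seen. Leaving out 1 array gave 0.93 to 2.66 for PDF1.2, 0.12 to 0.999 for THI2.1, 0.25 to 1.34 for JMT, -0.29 to 3.26 for BSMT1 and 0.14 to 2.15 for ORA47. With all arrays, array quality weights gave 0.79 for BSMT1 and 0.36 for JMT, and a pseudocount of 64 gave 0.56 for JMT; no other tested alternative on all arrays moved a difference of the 5 by over 1.5 times. Unadjusted p-values under 0.05 arose in 4 of the 78 values, 3 of PDF1.2 and 1 of ORA47. With the replicate number as a block PDF1.2 had a difference of 1.81 ± 0.27 (SE; limma, unadjusted p = 0.000511, adjusted p = 0.880) and 0 probe sets passed. Deviations from the group means correlated at 0.0061, -0.102 and 0.314 within numbers 1, 2 and 3. G3P replicate 3 alone among the G3P arrays correlated best with its own number. Deviations within a group of 3 arrays are tied to each other, so these values cannot decide whether equal numbers belong together. The sources used here do not say so either. The count at an unadjusted p was 496 of all probe sets, 685 with the block, 227 without the dimmest 50%, and from 233 to 1196 with 1 array left out. THI2.1, JMT and BSMT1 fell below the limit of the dimmest 25% and PDF1.2 below that of the dimmest 50%, so these settings gave no value for them. Leaving out G3P replicate 3 gave 4 positive pairs of 10 among the 5 genes, against 6 with all arrays and under every other alternative run. The position of BSMT1 near the scale minimum on 5 arrays limits what its size of change can show.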
